A study of Mus musculus with 37 samples.

Results

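Silicon ions at 30 cGy were set against silicon ions at 10 cGy in the mouse mammary gland at 1, 4 and 12 weeks after exposure. The comparison holds all 9 arrays titled 30 cGy Si and all 9 titled 10 cGy Si, with 3 arrays per dose at each week, and so 18 of the 37 arrays of the series. All were intact inguinal glands of female BALB/c mice exposed at 10 weeks of age to silicon ions (Si) of 350 MeV/amu, a densely ionizing particle beam, or sham-treated. In every mouse, control animals included, the inguinal gland of the opposite side had been cleared surgically before the exposure. The glands of weeks 4 and 12, unlike those of week 1, were taken once the mice had been moved back from the irradiation site. Besides the 30 cGy and 10 cGy groups, 10 sham arrays of the same weeks are given for orientation, and 9 arrays of mice given 100 cGy of gamma rays entered the estimate of the spread and each gene's mean over all arrays, which set the filter and the choice of probe set. The labels do not say whether replicates came from separate mice, so the p-values cover sample-to-sample spread only, and part of that spread may be technical.

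Silicon nuclei deposit their energy along dense tracks. Cells that carry misfolded protein switch on chaperones: in the cytosol through heat shock factor, which binds repeated GAA and TTC units, and in the endoplasmic reticulum through the unfolded protein response. Glucocorticoid hormones, released under systemic stress and needed by the mammary gland for secretory differentiation, act through a receptor that switches on genes such as Zbtb16, Fkbp5 and Tsc22d3. DNA breaks stabilize p53, which switches on Cdkn1a, the cell cycle inhibitor p21, and Mdm2, its own antagonist.

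All levels below are log2 RMA values, and every difference is 30 cGy minus 10 cGy on the log2 scale with its standard error, so a negative value means a lower level after 30 cGy. The 3-week value of a gene is the mean of its 3 within-week differences. A gene is called at an adjusted p under 0.05 (limma, Benjamini-Hochberg over the 13174 genes tested). With so few arrays per dose and week, their number limits the precision.

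The tissue markers fitted the label. Keratin 8 (Krt8, luminal epithelium) lay between 10.41 and 11.28 in the 30 cGy arrays and between 10.16 and 11.50 in the 10 cGy arrays. Keratin 14 (Krt14, basal epithelium) lay between 6.83 and 7.71 in the 30 cGy arrays and between 6.89 and 7.79 in the 10 cGy arrays. Adiponectin (Adipoq, adipocytes) lay between 11.03 and 11.66 in the 30 cGy arrays and between 11.24 and 11.65 in the 10 cGy arrays. None of these markers was at the floor of the arrays in any array. Lymphocyte and muscle genes varied far more: Cd3e, which T cells carry beside their receptor, ranged from 5.10 to 8.09 in the 30 cGy arrays and from 5.18 to 9.52 in the 10 cGy arrays, and Acta1, the skeletal muscle actin, from 6.36 to 9.63 and from 6.12 to 11.78. In whole tissue, fewer cells of a type and less RNA per cell cannot be told apart.

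The doses differed in few genes. Over the 3 weeks, 3 of 13174 genes were called (0.0228%), all lower after 30 cGy: Zbtb16, Banp and Aff1. At week 1, 7 were called (0.0531%): the chaperone genes Hsph1 and Hspb1, the endoplasmic reticulum gene Herpud1, P4ha1, Banp and Aff1 were lower after 30 cGy, and Arhgap18 was higher. At week 4, Fyb2 and Zbtb16 were called (0.0152%), both lower, and at week 12 none was (0%). At an unadjusted p under 0.05, 857 genes stood out over the 3 weeks (6.51%), 854 at week 1 (6.48%), 463 at week 4 (3.51%) and 506 at week 12 (3.84%). Of these, 490, 492 and 266 were higher after 30 cGy over the 3 weeks, at week 1 and at week 4. The median difference over all genes was 0.0077 over the 3 weeks, 0.03 at week 1, 0.0072 at week 4 and -0.02 at week 12. The 30 and 10 cGy arrays did not overlap for 16.3% of all genes tested at week 1, 10.9% at week 4 and 10.3% at week 12, which is the background for such statements on single genes.

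**Figure D1:**
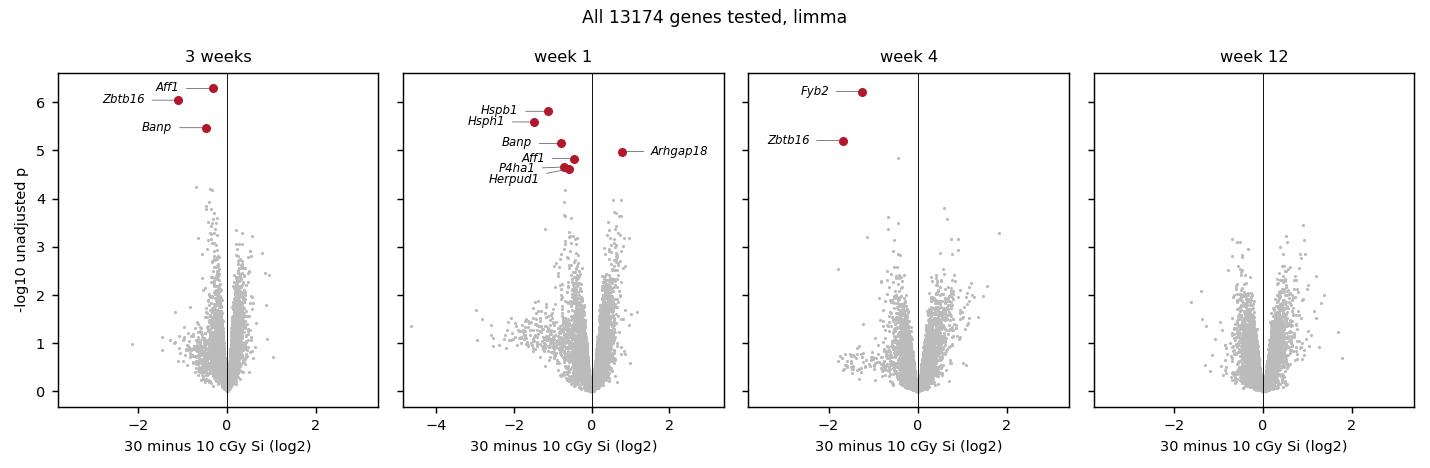
Each point is 1 of the 13174 genes, with the 30 minus 10 cGy Si difference (log2) on the x axis and -log10 of the unadjusted limma p on the y axis, for the mean of the 3 weeks and for each week. Red points are called at an adjusted p under 0.05: 3 over the 3 weeks, 7 at week 1, 2 at week 4 and 0 at week 12.

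Hsph1 and Hspb1 had the largest differences among the 7 genes called at week 1. Hsph1 encodes a large cytosolic chaperone that exchanges nucleotides for Hsp70. Hsph1 read 7.07, 7.29 and 7.06 in the 30 cGy arrays of week 1, against 8.04, 9.18 and 8.62 in the 10 cGy arrays and 6.67, 6.77 and 7.41 in the sham arrays. Every 10 cGy array lay above every 30 cGy and sham array, and the 30 cGy arrays lay within the sham range. Hsph1 fell in 30 cGy glands relative to 10 cGy glands, with a difference of -1.47 ± 0.25 (adjusted p = 0.0169), which is 2.78-fold lower. Its difference was -0.58 ± 0.25 at week 4 (adjusted p = 1.0) and -0.01 ± 0.25 at week 12, when the doses overlapped. The week 1 call was lost without 30 cGy replicate 1 or 3 or 10 cGy replicate 2 or 3, with Hsph1 at -1.19 to -1.47 and an adjusted p between 0.135 and 0.224.

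Hspb1, a small heat shock protein that holds unfolding proteins, read 9.40, 9.67 and 9.66 in the 30 cGy arrays of week 1. Its 10 cGy arrays read 10.04, 11.19 and 10.90, and its sham arrays 9.34, 9.67 and 9.13. The 2 doses did not overlap, and the 30 cGy values again lay in or beside the sham range. The difference was -1.13 ± 0.19 (adjusted p = 0.0169), 2.2-fold lower after 30 cGy. At week 4 it was -0.22 ± 0.19 and at week 12 -0.06 ± 0.19, with overlapping arrays at both. Hspb1 has 3 probe sets: the other bright set gave -1.16 at week 1, and a dim set with a mean of 3.38 gave -0.02. Without the same single arrays as for Hsph1 the adjusted p of Hspb1 lay between 0.0953 and 0.224.

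The windows of Hsph1 and of Chordc1, a co-chaperone of Hsp90, are shown because both hold the 3-unit heat shock element, searched for on both strands as the units GAA, TTC and GAA, or TTC, GAA and TTC, with any 2 bases between units. Each window runs from 250 bases before to 50 bases after a gene's start (RefSeq, GRCm38.p6, minus strand chr5:149636287-149636586 for Hsph1 and plus strand chr9:18292017-18292316 for Chordc1), with the matching letters in capitals.
Hsph1: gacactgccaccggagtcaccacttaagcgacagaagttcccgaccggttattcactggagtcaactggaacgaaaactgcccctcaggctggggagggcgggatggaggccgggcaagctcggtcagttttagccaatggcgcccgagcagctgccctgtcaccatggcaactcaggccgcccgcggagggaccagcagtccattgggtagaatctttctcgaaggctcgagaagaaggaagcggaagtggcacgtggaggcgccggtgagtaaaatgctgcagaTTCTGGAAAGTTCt
Chordc1: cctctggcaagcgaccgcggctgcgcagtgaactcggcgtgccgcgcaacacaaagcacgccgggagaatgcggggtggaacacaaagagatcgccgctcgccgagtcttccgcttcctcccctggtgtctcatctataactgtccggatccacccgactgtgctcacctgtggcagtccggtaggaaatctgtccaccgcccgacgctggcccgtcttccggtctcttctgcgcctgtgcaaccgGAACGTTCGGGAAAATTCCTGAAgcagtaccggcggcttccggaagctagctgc
In Hsph1 the match lies at bases 37 to 49 after the start, and in Chordc1 3 overlapping matches run from 4 bases before the start to base 19 after it. Hsph1 also has another listed start, from which the same match lies at bases 16 to 28. These letters occur in 0.603% of the 32851 windows of the table, and in those of 0.662% of its 27025 genes. Of the 20 heat shock genes that have a window, 4 hold them: Chordc1, Hspd1, Hspe1 and Hsph1. The window of Hspb1 does not hold them.

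Across the whole list of heat shock chaperones, 24 of 32 entries were tested and 21 of the 24 lay below 0 at week 1, with a median difference of -0.29 against 0.03 for all genes. Of the 24, 2 were called, both lower (Hsph1 and Hspb1). The others are given as values. Hspa4l, a relative of Hsph1, differed by -0.71 ± 0.16 (adjusted p = 0.140) and Chordc1 by -0.70 ± 0.17 (adjusted p = 0.180). Hsp90aa1, the inducible cytosolic Hsp90, differed by -0.58 ± 0.15 (adjusted p = 0.255). The median was -0.10 at week 4 and 0.06 at week 12, when none of the 24 was called. Leaving out single arrays gave medians of -0.34 to -0.21 at week 1, -0.12 to -0.05 at week 4 and -0.04 to 0.14 at week 12, the lowest of these without 30 cGy replicate 3.

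By array, the mean level of the heat shock chaperones was 8.39, 8.46 and 8.33 in the 30 cGy arrays of week 1. It was 8.55, 8.98 and 8.73 in the 10 cGy arrays and 8.16, 8.30 and 8.27 in the sham arrays. All 10 cGy values exceeded all 30 cGy values, which exceeded all sham values. The array with the highest chaperone level, 10 cGy replicate 2, had low lymphocyte levels: its T and NK cells list averaged 4.78 and its B cells list 5.14. The other 10 cGy arrays of week 1 averaged 7.22 and 6.49 for T and NK cells and 8.27 and 7.83 for B cells. With the lymphocyte, muscle, epithelial and brown adipocyte levels as covariates, the week 1 difference was -1.68 for Hsph1 and -1.25 for Hspb1. The median of the heat shock list with these covariates was -0.36 at week 1, 0.0044 at week 4 and 0.03 at week 12.

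**Figure D2:**
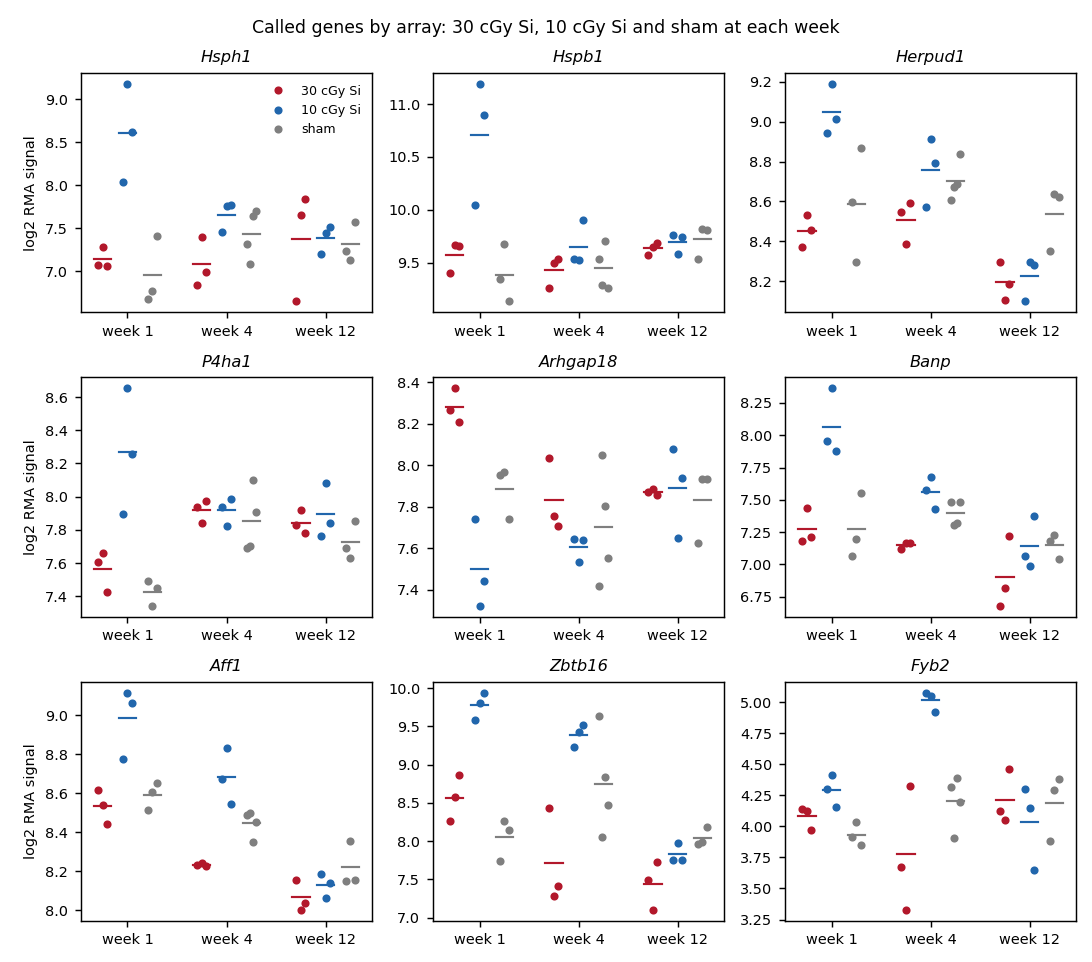
Log2 RMA signal (y axis) of the 9 called genes in each array (points) with the group mean (bar) at weeks 1, 4 and 12 for 30 cGy Si, 10 cGy Si and sham. At week 1 the 10 cGy points of Hsph1 (8.04 to 9.18) lie above all 30 cGy points (7.06 to 7.29).

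In the endoplasmic reticulum, 1 gene was called at week 1. Herpud1, a membrane protein of the pathway that degrades misfolded proteins, read 8.37, 8.53 and 8.46 in the 30 cGy arrays, against 8.94, 9.19 and 9.01 in the 10 cGy arrays and 8.60, 8.30 and 8.87 in the sham arrays. There was no overlap of the doses, and the sham arrays lay across the lower part of this range. The difference for Herpud1 was -0.59 ± 0.12 (adjusted p = 0.0457), 1.51-fold lower after 30 cGy, and it was -0.25 ± 0.12 at week 4 and -0.03 ± 0.12 at week 12. Leaving out any single array of week 1 other than 10 cGy replicate 1 ended this call (adjusted p between 0.150 and 0.362), and leaving out 1 of 9 arrays of the later weeks took it to between 0.0545 and 0.0640. Of 23 endoplasmic reticulum stress genes tested, 17 lay below 0 at week 1 with a median of -0.11, and Herpud1 alone was called. Manf, a secreted stress protein, differed by -0.46 ± 0.15, Creld2 by -0.42 ± 0.16 and Chac1, a glutathione-degrading enzyme, by -0.51 ± 0.24, none of them called. At week 4 the list's median was -0.04 and at week 12 0.06. Without single arrays the median lay between -0.15 and -0.05 at week 1, the value nearest to 0 without 10 cGy replicate 2.

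The window of Herpud1 (plus strand, chr8:94386179-94386478, RefSeq, GRCm38.p6) is shown for the compact stress element in capitals, ATTGG and CCACG with any 1 base between them, which lies at positions -52 to -42 from the start.
Herpud1: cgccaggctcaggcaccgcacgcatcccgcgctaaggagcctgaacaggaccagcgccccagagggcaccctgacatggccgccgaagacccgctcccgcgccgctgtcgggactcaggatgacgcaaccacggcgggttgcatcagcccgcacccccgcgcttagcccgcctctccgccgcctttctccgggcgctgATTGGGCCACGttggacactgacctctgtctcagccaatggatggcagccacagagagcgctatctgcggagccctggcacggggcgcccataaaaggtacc
This element was searched for on both strands, and only after the window had been read. It occurs in 0.0365% of the 32851 windows, in those of 0.0444% of all genes with a window, and in 2 of the 21 such endoplasmic reticulum stress genes, Herpud1 and Dnajb11. The longer element, CCAAT and CCACG with 9 bases between them on either strand, is not in the window of Herpud1. It occurs in 0.119% of all windows, in those of 0.137% of all genes and in those of 8 of the 21 genes, among them Hspa5, Hsp90b1 and Calr.

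P4ha1, a catalytic subunit of the enzyme that hydroxylates proline in collagen, read 7.61, 7.66 and 7.43 in the 30 cGy arrays of week 1. Its 10 cGy arrays read 7.90, 8.65 and 8.26, and its sham arrays 7.49, 7.34 and 7.45. With no overlap between the doses, P4ha1 differed by -0.71 ± 0.14 (adjusted p = 0.0457), 1.63-fold lower after 30 cGy. The difference was 0.0011 ± 0.14 at week 4 and -0.05 ± 0.14 at week 12. The week 1 call of P4ha1 was lost without any single array of that week other than 10 cGy replicate 1 (adjusted p between 0.150 and 0.357), and without 1 of 10 later arrays it lay between 0.0524 and 0.0640. Of the 24 collagen and matrix genes tested, 21 lay above 0 at week 1, with a median of 0.17, and none was called.

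Arhgap18, a GTPase-activating protein that acts on the actin cytoskeleton, was the 1 gene called higher at week 1. It read 8.27, 8.37 and 8.21 in the 30 cGy arrays, against 7.74, 7.32 and 7.44 in the 10 cGy arrays and 7.95, 7.97 and 7.74 in the sham arrays. Sham values of Arhgap18 lay between those of the doses, with the lowest of them level with the highest 10 cGy array. The difference was 0.78 ± 0.15 (adjusted p = 0.0347), 1.72-fold higher after 30 cGy. At week 4 it was 0.23 ± 0.15, with no overlap of the doses, and at week 12 -0.02 ± 0.15. Without any single array of week 1 other than 10 cGy replicate 1, Arhgap18 had an adjusted p between 0.155 and 0.255.

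Aff1, a scaffold of the complex that releases RNA polymerase into elongation, was called at week 1 and over the 3 weeks. At week 1 it read 8.62, 8.54 and 8.44 in the 30 cGy arrays, against 8.78, 9.12 and 9.06 in the 10 cGy arrays and 8.51, 8.61 and 8.65 in the sham arrays. At week 4 Aff1 read 8.23, 8.24 and 8.23 in the 30 cGy arrays, against 8.67, 8.83 and 8.55 in the 10 cGy arrays, and 8.35 to 8.50 in the 4 sham arrays. The doses did not overlap at either week, and at week 4 sham lay between them. The differences of Aff1 were -0.45 ± 0.09 at week 1 (adjusted p = 0.0388), -0.45 ± 0.09 at week 4 (adjusted p = 0.0633) and -0.06 ± 0.09 at week 12. The 3-week value was -0.32 ± 0.05 (adjusted p = 0.00594), 1.25-fold lower after 30 cGy. A second, dimmer probe set of Aff1 gave -0.16 at week 1, -0.47 at week 4 and -0.21 over the 3 weeks, and with the mean of the probe sets the 3-week adjusted p was 0.240. At week 1 the call of Aff1 was lost without any single array of that week other than 10 cGy replicate 1 (adjusted p between 0.140 and 0.338), and without 1 of 4 later arrays it lay between 0.0536 and 0.0565.

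Banp, a nuclear protein that binds DNA, was likewise called at week 1 and over the 3 weeks. At week 1 it read 7.18, 7.44 and 7.22 in the 30 cGy arrays, against 7.95, 8.36 and 7.88 in the 10 cGy arrays and 7.06, 7.19 and 7.56 in the sham arrays. At week 4 Banp read 7.12, 7.16 and 7.17 in the 30 cGy arrays, against 7.58, 7.67 and 7.43 in the 10 cGy arrays. The doses did not overlap at weeks 1 and 4. Its differences were -0.79 ± 0.14 at week 1 (adjusted p = 0.0313), -0.41 ± 0.14 at week 4 and -0.24 ± 0.14 at week 12. Over the 3 weeks Banp differed by -0.48 ± 0.08 (adjusted p = 0.0148), 1.39-fold lower after 30 cGy. Without any single one of 7 of the 18 arrays, 3 of week 1, 1 of week 4 and 3 of week 12, its 3-week adjusted p lay between 0.0512 and 0.0684. At week 1 the call of Banp was lost without 30 cGy replicate 1 or 3 or 10 cGy replicate 2 or 3 (adjusted p between 0.0870 and 0.255).

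Zbtb16 had the largest difference among the genes called over the 3 weeks. It encodes a zinc finger repressor that glucocorticoids and progestins switch on in several tissues. At week 1 Zbtb16 read 8.26, 8.57 and 8.87 in the 30 cGy arrays, against 9.59, 9.81 and 9.94 in the 10 cGy arrays and 7.74, 8.26 and 8.15 in the sham arrays. At week 4 it read 8.43, 7.29 and 7.41 in the 30 cGy arrays, against 9.23, 9.42 and 9.51 in the 10 cGy arrays, and from 8.05 to 9.63 in the 4 sham arrays. At week 12 Zbtb16 read 7.49, 7.10 and 7.73 in the 30 cGy arrays, against 7.75, 7.98 and 7.76 in the 10 cGy arrays and 7.96, 7.99 and 8.18 in the sham arrays. The doses did not overlap at any week. At week 1 the lowest 30 cGy array was level with the highest sham array and the others were above it, and at week 12 all 30 cGy arrays were below the sham arrays.

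The 3-week difference of Zbtb16 was -1.09 ± 0.18 (adjusted p = 0.00594), 2.14-fold lower after 30 cGy. By week it was -1.21 ± 0.30 at week 1 (adjusted p = 0.251), -1.68 ± 0.30 at week 4 (adjusted p = 0.0410) and -0.39 ± 0.30 at week 12 (adjusted p = 0.997). Against sham, with the sham arrays shared by both doses, the week 1 values were 0.52 ± 0.30 for 30 cGy and 1.73 ± 0.30 for 10 cGy. At week 4 they were -1.04 ± 0.28 for 30 cGy and 0.64 ± 0.28 for 10 cGy. The week 4 call of Zbtb16 was lost without any single array of that week other than 30 cGy replicate 1 (adjusted p between 0.143 and 0.651), and without 1 of 7 arrays of weeks 1 and 12 it lay between 0.0517 and 0.0606.

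Other glucocorticoid response genes gave the following values, none called. Fkbp5, a co-chaperone that restrains the receptor, read 7.44, 7.18 and 6.75 in the 30 cGy arrays of week 1 and 7.87, 8.32 and 8.13 in the 10 cGy arrays. At week 4 Fkbp5 read 6.53, 6.49 and 6.89 after 30 cGy and 7.59, 8.06 and 7.66 after 10 cGy. The doses did not overlap at either week, with differences of -0.98 ± 0.30 (adjusted p = 0.411) and -1.13 ± 0.30 (adjusted p = 0.715). Tsc22d3, a leucine zipper protein that dampens inflammation, differed by -0.68 ± 0.16 at week 1 and -0.49 ± 0.16 at week 4, and the kinase gene Map3k6 by -0.64 ± 0.19 and -0.56 ± 0.19. The kinase gene Sgk1 had the opposite sign at week 4: it read 8.24, 8.36 and 8.20 in the 30 cGy arrays and 7.61, 7.33 and 7.57 in the 10 cGy arrays, a difference of 0.76 ± 0.22 (adjusted p = 1.0). At week 12 the clock gene Per1 differed by 0.74 ± 0.24 (adjusted p = 0.997), and Fkbp5 by 0.16 ± 0.30.

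Of the 21 glucocorticoid response genes tested, 17 lay below 0 at week 1, with a median of -0.25 and none called. At week 4, 10 lay below 0, with a median of 0.02, and Zbtb16 alone was called. At week 12, 7 lay below 0, with a median of 0.16. Without single arrays the median lay between -0.37 and -0.14 at week 1, where 10 cGy replicate 2 gave the value nearest to 0, between -0.02 and 0.05 at week 4, and between 0.07 and 0.21 at week 12, where 10 cGy replicate 1 gave the lowest. By array, the list averaged 8.87, 8.76 and 8.58 in the 30 cGy arrays of week 1, against 8.77, 9.23 and 9.10 in the 10 cGy arrays and 8.83, 8.60 and 8.24 in the sham arrays, so the doses overlapped. The spread of the sham arrays of the glucocorticoid response list covered most of the 30 cGy range.

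**Figure D3:**
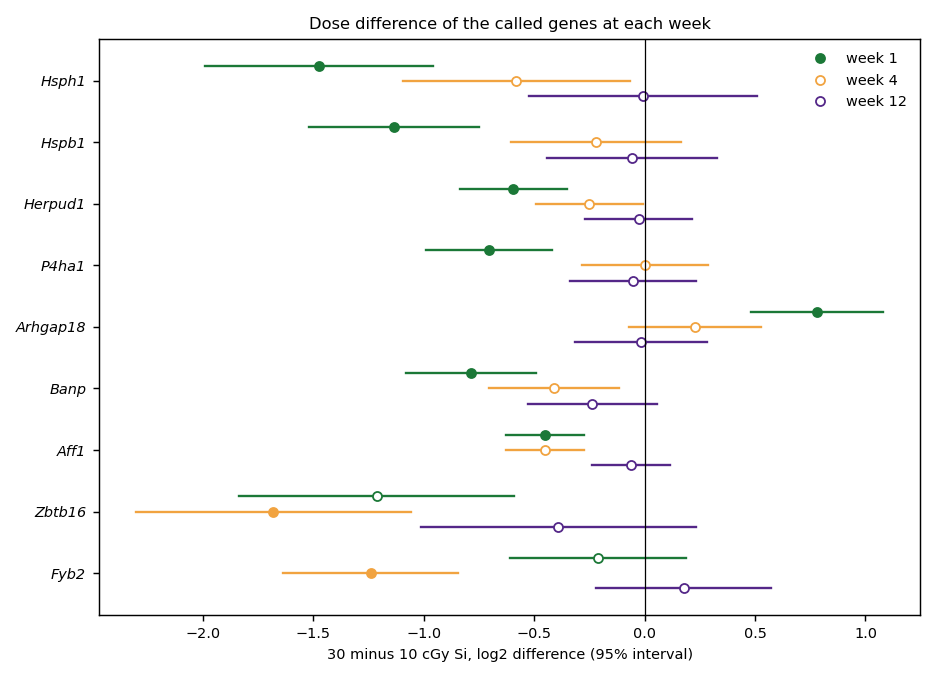
Difference between 30 and 10 cGy Si (log2, x axis) of the 9 called genes at weeks 1, 4 and 12, with 95% intervals (lines). Filled points are called at an adjusted p under 0.05: 7 at week 1, 2 at week 4 and 0 at week 12, where every interval includes 0.

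Fyb2, an adaptor protein of T cell receptor signalling, had the smallest p at week 4. It read 3.68, 3.33 and 4.32 in the 30 cGy arrays, against 5.08, 5.05 and 4.92 in the 10 cGy arrays and 3.90 to 4.39 in the 4 sham arrays. The doses did not overlap, the sham arrays lay below all 10 cGy arrays, and 2 of the 30 cGy arrays lay below all sham arrays. Fyb2 differed by -1.24 ± 0.19 (adjusted p = 0.00791), 2.36-fold lower after 30 cGy. At week 1 the difference was -0.21 ± 0.19 and at week 12 0.18 ± 0.19. The week 4 call was lost without 30 cGy replicate 1 or 2 or 10 cGy replicate 1 or 2 (adjusted p between 0.0635 and 0.293). Fyb2 is a dim gene: its mean over all arrays was 4.15, close to the filter at 4.04. In the same week the T and NK cells list averaged 4.37, 4.48 and 6.34 in the 30 cGy arrays and 4.62, 6.51 and 4.60 in the 10 cGy arrays. With the tissue covariates, T and B cell levels among them, the difference of Fyb2 was -1.33 (adjusted p = 0.0166).

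The window of Fyb2 (plus strand, chr4:104913311-104913610, RefSeq, GRCm38.p6) is shown because, of the 7 called genes with a window, it alone matched the glucocorticoid receptor pattern: ACA and TGT with any 3 bases between them, then on each side any 1 base followed outward by G before ACA and C after TGT. The pattern was searched for on both strands and reads the same on each. The other called genes, Banp and Zbtb16, had no window here and could not be searched.
Fyb2: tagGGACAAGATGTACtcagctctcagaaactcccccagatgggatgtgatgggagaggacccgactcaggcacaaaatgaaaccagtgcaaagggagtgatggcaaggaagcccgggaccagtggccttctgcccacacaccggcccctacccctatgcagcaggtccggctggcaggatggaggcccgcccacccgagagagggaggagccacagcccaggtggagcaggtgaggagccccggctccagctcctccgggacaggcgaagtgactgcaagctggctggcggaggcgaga
The match, in capitals, lies at positions -247 to -235 from the start. The pattern occurs in 0.475% of the 32851 windows and in those of 0.54% of all genes. It is in those of 3 of the 18 glucocorticoid response genes with a window, Map3k6, Mt1 and Sgk1. A match to such letters describes the sequence and was not tested as a binding site.

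Among named genes that did not pass, the smallest p-values over the 3 weeks belonged to Hsph1 (-0.69 ± 0.15), to Mapre2, which binds microtubule ends (-0.38 ± 0.08), and to Foxo1, a transcription factor held back by insulin signalling (-0.33 ± 0.07), each with an adjusted p of 0.144. Garre1 (-0.41 ± 0.09) and Hspb1 (-0.47 ± 0.11) followed. On the higher side stood Zdhhc4, a palmitoyltransferase (0.20 ± 0.05), Arhgap18 (0.33 ± 0.08), Gpx2, a glutathione peroxidase (0.55 ± 0.14), Lzts1 (0.34 ± 0.09), Bcl9, a cofactor of beta-catenin (0.21 ± 0.06), Nelfe, a subunit of the factor that pauses RNA polymerase (0.26 ± 0.07), Metap2 (0.21 ± 0.06) and the peroxisomal thiolase Acaa1b (0.51 ± 0.14). Their adjusted p-values lay at 0.304 or above.

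At week 1, Trim65, a ubiquitin ligase, had the smallest p among named genes that did not pass: it read 6.81, 6.80 and 6.75 in the 30 cGy arrays, against 7.46, 7.48 and 7.46 in the 10 cGy arrays and 6.77, 6.79 and 7.19 in the sham arrays. Its difference was -0.68 ± 0.15 (adjusted p = 0.110). Trim65 was called when only the 18 Si arrays entered the fit (adjusted p = 0.0150), where it was the 1 gene that passed. Higher values that did not pass were those of Zbtb7c (0.77 ± 0.17), Dach1 (0.56 ± 0.12), Pla2g15, a lysosomal phospholipase (0.57 ± 0.13), Bahcc1 (0.62 ± 0.15), Gtf2ird1 (0.76 ± 0.18), Dtx2 (0.71 ± 0.17) and Slc36a4 (0.42 ± 0.10).

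At week 4, values that did not pass included those of Garre1 (-0.67 ± 0.16), Tns2, an adhesion protein (-0.44 ± 0.11), Mertk, a receptor for the uptake of dying cells (-0.67 ± 0.17), and Mapre2 (-0.54 ± 0.14). On the higher side stood Brca2, a gene of DNA break repair (0.59 ± 0.13), Tmem238 (0.67 ± 0.16), Agxt2 (0.90 ± 0.23), Arhgef4 (0.74 ± 0.19), the desmosomal cadherin Dsc2 (0.90 ± 0.25) and Grin2d (0.49 ± 0.14). Sprr2a1, a small proline-rich protein of stressed epithelia, read 6.21, 6.79 and 7.70 in the 30 cGy arrays, against 5.42, 5.06 and 4.75 in the 10 cGy arrays and 4.59 to 5.66 in the 4 sham arrays. All 30 cGy arrays were above all 10 cGy and sham arrays, with a dose difference of 1.82 ± 0.47 (adjusted p = 0.715).

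At week 12 no gene passed, and the smallest adjusted p was 0.997. Small unadjusted p-values, from 0.000609 to 0.00143, belonged to Plin5, a lipid droplet coat protein (0.51 ± 0.13), Hpgd, which inactivates prostaglandins (-0.70 ± 0.18), Gpam, which starts triglyceride synthesis (0.91 ± 0.24), Fgf1, a growth factor (-0.59 ± 0.16), P3h2 (-0.52 ± 0.14), Urad (0.55 ± 0.15), Sdhaf1 (0.39 ± 0.11) and the sterol demethylase Cyp51 (0.82 ± 0.23). Plin5 read 4.95, 5.07 and 5.02 in the 30 cGy arrays and 4.54, 4.46 and 4.51 in the 10 cGy arrays, with sham from 4.73 to 4.95. Sham values of Plin5 lay between the doses or level with the lowest 30 cGy array.

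Whether the dose difference itself varied between weeks was tested with a moderated F test, and 0 genes were called (0%). At an unadjusted p under 0.05 it picked 436 genes (3.31%). The smallest adjusted p, 0.682, belonged to Fyb2, whose difference at week 1 exceeded that at week 4 by 1.03 ± 0.27. For Hspb1 the week 1 difference minus that of week 4 was -0.91 ± 0.27 and for Hsph1 -0.89 ± 0.36 (adjusted p = 1.0 for both). For 1.42% of all genes the doses lay apart in at least 2 weeks in opposite directions. A call at one week and not at another was therefore not shown to be a difference between weeks.

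Cdkn1a did not separate the doses. It read 9.74, 9.57 and 9.12 in the 30 cGy arrays of week 1, against 9.13, 9.73 and 9.38 in the 10 cGy arrays and 8.48, 8.30 and 8.19 in the sham arrays. The doses overlapped, and all 6 irradiated arrays lay above the sham arrays. The dose difference of Cdkn1a was 0.06 at week 1, with a 95% interval from -0.57 to 0.70, and -0.05 over the 3 weeks, with an interval from -0.42 to 0.32. These intervals leave room for a difference of either sign.

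Over the 3 weeks Mdm2 differed by -0.01 (95% interval -0.14 to 0.12) and Ccng1, a cyclin induced by p53, by -0.05 (-0.23 to 0.12). Eda2r, a cell surface receptor, differed by -0.08 (-0.33 to 0.17) and Phlda3, an Akt repressor, by 0.34 (-0.0047 to 0.69). Phlda3 read 9.16, 9.48 and 9.36 in the 30 cGy arrays of week 1 and 8.74, 8.80 and 8.72 in the 10 cGy arrays, which did not overlap, with sham at 9.20, 9.13 and 9.22. Of 25 p53 targets tested, none was called at any week, and the medians were -0.04, 0.05 and -0.05 at weeks 1, 4 and 12. Of 21 genes of DNA break repair, none was called, and the medians were -0.05, 0.06 and -0.04. Leaving out single arrays turned the sign of the p53 median at every week and that of the DNA break repair median at week 1.

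**Figure D4:**
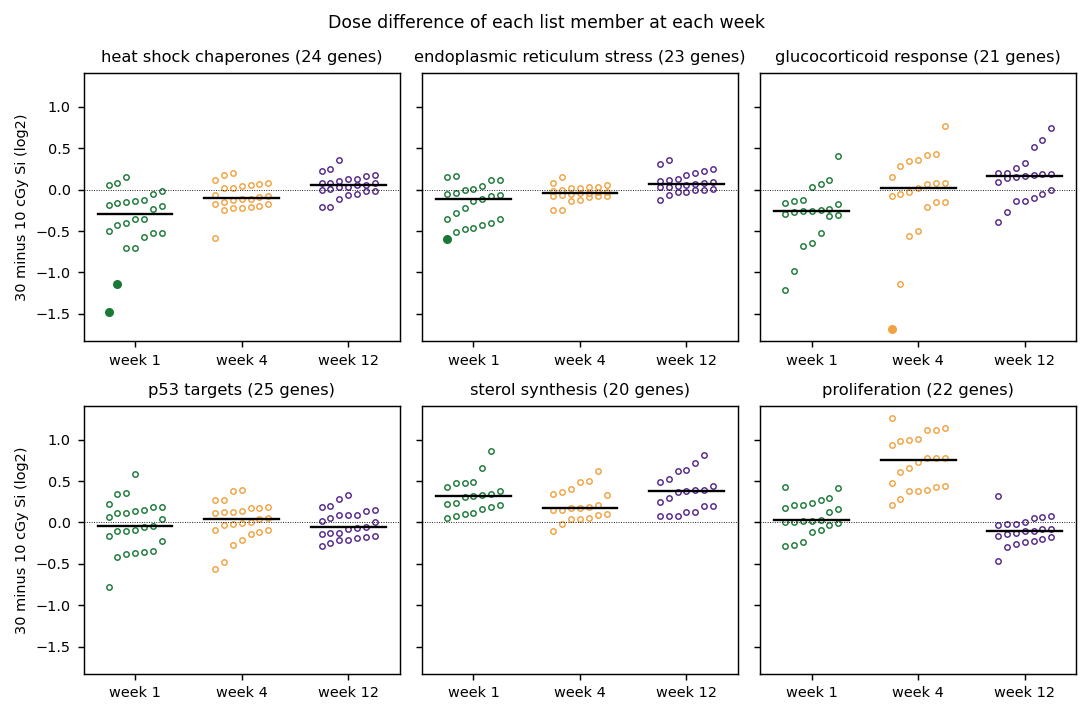
Difference between 30 and 10 cGy Si (log2, y axis) of each tested member (points) of 6 gene lists at weeks 1, 4 and 12, with the list's median (bar). Filled points are called. The heat shock chaperones have a median of -0.29 at week 1 and 0.06 at week 12, and the proliferation list 0.75 at week 4.

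Among the other lists, none of the members was called at any week. The 20 sterol synthesis genes tested all lay above 0 over the 3 weeks, with a median of 0.32 against 0.0077 for all genes. Their median was 0.32 at week 1, 0.18 at week 4 and 0.38 at week 12. At week 4 it was 0.30 without 10 cGy replicate 3, and at week 12 it was 0.19 without 30 cGy replicate 3. With the tissue covariates the median was 0.19 at week 1, 0.24 at week 4 and 0.20 at week 12. Hmgcs1, the synthase that feeds the mevalonate pathway, read 8.15, 8.85 and 8.23 in the 30 cGy arrays of week 1 and 7.59, 7.81 and 7.24 in the 10 cGy arrays, a difference of 0.86 ± 0.26 (adjusted p = 0.415). By array, the sterol synthesis list averaged 7.27, 7.37 and 7.17 in the 30 cGy arrays of week 1, against 6.99, 7.02 and 6.82 in the 10 cGy arrays and between 6.95 and 7.05 in the sham arrays, with no overlap between the doses. At week 4 the list averaged 7.08, 7.24 and 7.18 after 30 cGy and 6.93, 6.75 and 7.16 after 10 cGy, which overlapped, with sham from 6.80 to 7.44. At week 12 it averaged 7.62, 7.75 and 8.10 after 30 cGy and 7.34, 7.25 and 7.79 after 10 cGy, and these overlapped. The sham arrays of week 12 averaged 7.18, 6.84 and 7.86.

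Of 25 fatty acid synthesis genes, 24 lay above 0 at week 12 with a median of 0.54, led by Acacb (1.02 ± 0.51) and Gpam. By array, the fatty acid synthesis list averaged 10.01, 10.49 and 10.84 in the 30 cGy arrays of week 12 and 9.95, 9.71 and 10.22 in the 10 cGy arrays, which overlapped. Sham arrays of that week averaged 9.71, 9.39 and 10.53, a range that held all 10 cGy arrays and part of the 30 cGy arrays. Without 30 cGy replicate 3 of week 12 the median was 0.32, and with the tissue covariates it was 0.24.

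All 22 proliferation genes lay above 0 at week 4, with a median of 0.75, where 6861 of all 13174 genes tested did. Of the 22, 12 had an unadjusted p under 0.05 (limma), against 3.51% of all genes. Such genes may vary together between arrays, so the 12 need not be separate results. The mean level of the proliferation list was 5.88, 6.06 and 5.92 in the 30 cGy arrays of week 4, against 5.29, 5.49 and 4.91 in the 10 cGy arrays and 4.85, 5.11, 5.23 and 5.40 in the sham arrays. Every 30 cGy array exceeded every 10 cGy and sham array of that week. Rrm2, a subunit of ribonucleotide reductase, differed by 1.26 ± 0.46, Top2a, the replication topoisomerase, by 1.14 ± 0.52 and the proliferation marker Mki67 by 1.11 ± 0.52, each with an adjusted p of 1.0. At week 4 the median was also 0.28 over 19 basal epithelium genes, of which 17 lay above 0, and 0.19 over 24 luminal epithelium genes, of which 17 did, none called. With the tissue covariates, the epithelial level among them, the week 4 median of the proliferation list was 0.96. Leaving out single arrays gave week 4 medians from 0.53, without 10 cGy replicate 3, to 0.92, without 10 cGy replicate 2. At week 12 the proliferation list averaged 5.51, 4.94 and 5.83 in the 30 cGy arrays and 4.69, 5.94 and 5.94 in the 10 cGy arrays, with a median difference of -0.10. That median was -0.58 without 10 cGy replicate 1 and 0.15 without 30 cGy replicate 2.

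Lymphocyte genes at week 1 and skeletal muscle genes at week 4 lay far below 0, and none of these genes was called. Of 19 T and NK cells genes, all lay below 0 at week 1, with a median of -1.48, and of 19 B cells genes 18 did, with a median of -1.75. The T and NK cells list averaged 4.52, 4.88 and 4.69 in the 30 cGy arrays of week 1 and 7.22, 4.78 and 6.49 in the 10 cGy arrays, with sham at 5.85, 4.82 and 7.66. Of the 3 arrays at 10 cGy, 2 were thus high and 1 lay within the 30 cGy range. Without 10 cGy replicate 1 of week 1 the T and NK cells median was -0.92, and without replicate 2 it was -2.27. At week 4 a single array of each dose was high, 30 cGy replicate 3 at 6.34 and 10 cGy replicate 2 at 6.51. The 24 skeletal muscle genes had a median of -1.46 at week 4, and the skeletal muscle list averaged 5.78, 6.55 and 6.79 in the 30 cGy arrays and 6.89, 6.60 and 9.31 in the 10 cGy arrays. Without 10 cGy replicate 3 of week 4 that median was -0.38. With the 4 tissue covariates (lymphocytes, muscle, epithelium and brown adipocytes) the week 1 difference was -0.56 for Herpud1 (adjusted p = 0.0628) and -0.43 for Aff1 (adjusted p = 0.142), and the week 4 difference of Zbtb16 was -1.68 (adjusted p = 0.0520). These 3 did not pass, and the other 6 calls of weeks 1 and 4 did.

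**Figure D5:**
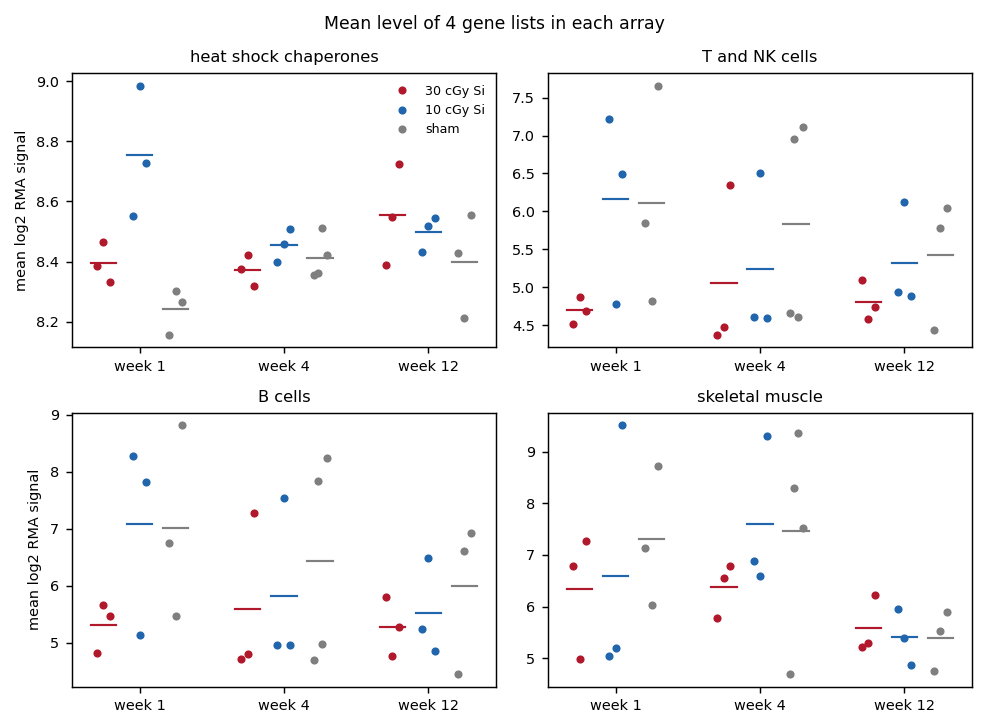
Mean log2 RMA signal (y axis) of the heat shock chaperones, T and NK cells, B cells and skeletal muscle lists in each array (points) with the group mean (bar) at weeks 1, 4 and 12 for 30 cGy Si, 10 cGy Si and sham. Within week 1 the 10 cGy arrays lie above the others for heat shock chaperones (8.55 to 8.98) and are split for T and NK cells (4.78 to 7.22).

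The remaining lists had no called member. Interferon response genes had a median of 0.27 at week 12 over 23 genes, with Ifit1, an antiviral RNA sensor, at 0.74 ± 0.31, and the median was 0.09 without 30 cGy replicate 1. Immediate early genes had a median of -0.16 at week 1 and 0.15 at week 4 over 25 genes, with Egr2 at 1.55 ± 0.53 at week 4. Their median was -0.04 at week 1 without 10 cGy replicate 2 and -0.28 without replicate 3, and -0.00070 at week 4 without 30 cGy replicate 3. Of 16 circadian clock genes, 13 lay below 0 at week 1, with a median of -0.24, and 4 at week 12, with a median of 0.13. The circadian clock median was -0.16 at week 1 without 10 cGy replicate 3 and 0.04 at week 12 without 10 cGy replicate 2. The clock gene Per2 differed by -0.87 ± 0.28 at week 1 and 0.48 ± 0.28 at week 12. Oxidative phosphorylation genes had a median of 0.22 at week 12 over 28 genes, of which 27 lay above 0, and it was 0.08 without 30 cGy replicate 3 and 0.06 with the tissue covariates. The 27 cytosolic ribosomal protein genes had medians of -0.06, 0.04 and -0.06 at weeks 1, 4 and 12, each of which changed sign without a single array.

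The calls of single weeks rested on few arrays. At week 1, 0 genes were called by limma without 30 cGy replicate 1 or 3 or 10 cGy replicate 2 or 3, with 483 to 1298 genes at an unadjusted p under 0.05, while 3 were called without 30 cGy replicate 2 and 13 without 10 cGy replicate 1. At week 4, 0 were called without 30 cGy replicate 2 or 10 cGy replicate 1 or 2, with 254 to 509 at an unadjusted p under 0.05.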

How the data were processed

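The deposited values are log2 signals that the authors made with RMA and oligo, as the submitters' processing notes list; versions are not given in the sources used here. Per the labels' protocols, total RNA was amplified and hybridised to 1 Affymetrix array per sample. The table held 35556 probe sets on 37 arrays, of which 21218 had 1 gene symbol, 1881 several and 12457 none here. One probe set per gene (highest mean) and genes with a mean above the 30th percentile, log2 4.04, were kept, which left 13174. Group means of all 12 groups were fitted with limma 3.58.1 in R 4.3.3, with Benjamini-Hochberg adjustment, and the script was tested on simulated data. The dose contrasts were taken within each week and averaged, which treats week as a block, and an F test compared weeks. Named genes were up to 12 called genes per direction by size, filled to 8 by p, up to 5 list members by size, and 7 genes followed throughout. The members and lists were chosen with earlier results of these data known. Arrays correlated between 0.896 and 0.990. Alternatives changed the filter, probe set rule, normalization, variance prior, array weights, replicate block, samples in the fit, tissue covariates and single replicates.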

Additional observations from a re-analysis of the deposited data

Results flagged for a closer look

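Within the 9 arrays of a dose, 76 tests for a single array standing apart (Dixon's test) found 5, a share close to the 1 in 20 that chance gives. The 9 arrays span the 3 weeks, so a difference between weeks can also set an array apart. The values are mean log2 deviations of a list's genes from their means over all arrays. In 30 cGy replicate 3 of week 4, T and NK cells stood at 0.8672, B cells at 1.1916 and macrophages at 0.6455, above the other 30 cGy arrays. Oxidative phosphorylation was high in 30 cGy replicate 3 of week 12, at 0.5204, and ovarian hormone targets were low in 30 cGy replicate 3 of week 1, at -0.1289.

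For 9 of 63 named genes the doses did not overlap in at least 2 weeks and lay in opposite directions (30 minus 10 cGy, log2). This held for 187 of all 13174 genes tested (1.42%), and since the named genes were chosen by p on the same arrays the 2 shares cannot be compared. The F test between weeks called none of the 9. Hspa4l differed by -0.7103 at week 1 and 0.1274 at week 12. Slc36a4 differed by 0.4157 at week 1 and -0.0921 at week 12, and Chp2 by 0.5918 at week 1 and -0.5803 at week 12. Dtx4 differed by 0.6402 at week 1, 0.1891 at week 4 and -0.5127 at week 12. Between week 4 and week 12, Cacna1c differed by 0.2453 and -0.4653, Cnmd by 0.2274 and -0.7029, and Tmem238 by 0.6657 and -0.3569. In the same weeks Klf14 differed by -0.484 and 0.3896, and Urad by -0.1478 and 0.55.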

How the results depend on the processing

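No result changed direction among those whose direction was called. Over the 3 weeks, where 3 genes were called, array weights gave 18 (3 higher after 30 cGy) and tissue covariates 7 (2 higher). Leaving out single arrays gave 2 to 8. The 18 Si arrays alone gave 0 (1352 at an unadjusted p under 0.05, limma). That 3-week fit also used week plus dose in place of the group means, so the changes of samples and model cannot be told apart. At week 1, where 7 were called, the mean of probe sets gave 4, array weights 146 (87 higher, against 1 of the 7) and the 18 Si arrays alone 1, and leaving out single arrays gave 0 to 13. At week 4, where 2 were called, a filter at the 50th percentile gave 0 (266 unadjusted), array weights 4 and tissue covariates 1, and leaving out single arrays gave 0 to 3. At week 12, 0 genes were called in every setting, with 288 to 918 at an unadjusted p under 0.05. The F test between weeks gave 1 with array weights and 0 to 1 without single arrays. Leaving out the 2 sham arrays least like the rest, an alternative chosen after seeing the data, gave 3, 9, 2 and 0 genes over the 3 weeks and at weeks 1, 4 and 12. For the called genes, 227 alternative values stayed past the threshold and 108 did not. The median of the skeletal muscle list at week 4, not a call, was -1.46 and became 0.06 with the tissue covariates, 1 of which is that list. The other causes were not tested.

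Replicate numbers did not pair the samples: deviations of same-numbered 30 and 10 cGy arrays correlated between -0.318 and 0.323, and 3 of 9 arrays matched their own number best. With the replicate block, 3 genes were called over the 3 weeks, 3 at week 1 (2 of them among the 7), 0 at week 4 (460 unadjusted) and 0 at week 12.

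The number of arrays, 3 per dose and week, and a second probe set for only 1386 of 18820 genes limit these values.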
